A study of Homo sapiens with 16 samples.

Results

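The RNA bound to polysomes in human HEK-293 cells was compared between cells with Gemin5 silenced (siRNAG5) and cells without the Gemin5 siRNA (Ctrl). The 8 polysomal libraries of the series, 4 Ctrl and 4 siRNAG5, were used for every test, and the other 8 of its 16 libraries came from the cytoplasmic lysates of the same conditions (Input) and are given only as values beside the polysomal ones. HEK-293 cells are a widely used line that was started from human embryonic kidney. All cells were treated with cycloheximide, which holds ribosomes on mRNAs, before the heavy fractions of a sucrose gradient were pooled, and the libraries were made from polyadenylated RNA. The siRNAG5 cells had been transfected with 100 nM of 1 siRNA against Gemin5, so that effects of its sequence and of Gemin5 loss cannot be told apart. The treatment of the Ctrl cells is described both as none and as a control siRNA, and this is not settled here. Genes were grouped into 43 functional classes, which held 1565 of the 14420 genes tested, and genes of liver and plasma proteins were set aside.

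Gemin5 is an RNA-binding protein with a large WD-repeat domain. It recognises small nuclear RNAs for the survival of motor neuron (SMN) complex, which loads Sm proteins onto them, and it also binds mRNAs and ribosomes. An mRNA with many ribosomes sediments in the heavy fractions of a gradient, so the amount of an mRNA in the polysomal pool depends both on how much of it the cell holds and on how large a share of it carries several ribosomes. In bulk RNA, fewer cells with an mRNA and less of it per cell cannot be told apart. A group of mRNAs for the translation machinery starts with a cytosine and a run of pyrimidines, the terminal oligopyrimidine (TOP) motif. The mRNAs of replication-dependent histones end in a conserved stem-loop and mostly lack a poly(A) tail.

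The siRNA is shown because every comparison rests on it. Its sense strand, with the bases that match the GEMIN5 mRNA in capitals and the overhang in lower case, was:
siRNAG5 sense strand: CCUUAAUCAAGAAGAGAAAuu
The 19 matched bases lie at chr5:154904608-154904626 on the minus strand of GRCh38, in the coding sequence in exon 18 of 28. An exact match of all 19 bases was found in 0 other genes of 62700 searched, with 1 transcript taken per gene. Partial matches were not searched for. GEMIN5 (ENSG00000082516, chr5:154887411-154938211) stood at 7.06, 9.03, 9.62 and 11.3 CPM in Ctrl 1 to 4 and 2.70, 3.98, 3.94 and 2.98 CPM in siRNAG5 1 to 4, where CPM are read counts per 1000000 reads of the TMM-scaled library. Each siRNAG5 library was below each Ctrl library, with means of 9.25 ± 1.75 CPM (Ctrl) and 3.40 ± 0.654 CPM (siRNAG5) (SD, n = 4). By the quasi-likelihood test of edgeR GEMIN5 fell (log2 FC -1.44, SE 0.21, adjusted p = 0.00477), and its log2 fold change (FC) in Input was -1.40.

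The start of a TOP mRNA and the end of a histone mRNA are shown for members called lower whose groups do not overlap and for EEF2, the TOP mRNA outside the ribosomal proteins that was called higher. In the RefSeq sequences (GRCh38.p14, 20 bases before the start and 10 from it), capitals mark the pyrimidines that run from the first transcribed base:
RPL35A, chr3:197950170-197950199, plus strand: ccacgcggcggggcctcgtcCTTCTCTTac
RPL21, chr13:27251538-27251567, plus strand: cgccgcggccccgcctctttCCTTTCggcc
RPL35, chr9:124861948-124861977, minus strand: aggtcagccccgcctacttcCTCTTTCCCT
EEF2, chr19:3985454-3985483, minus strand: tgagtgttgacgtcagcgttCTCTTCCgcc
A start with C followed by pyrimidines to at least 5 in all was found in 43 of 64 ribosomal protein genes with a sequence (67.2%) and in 13 of 16 other TOP genes (81.2%), against 573 of 10701 genes tested (5.35%). At the ends of replication-dependent histone mRNAs (GENCODE v44, GRCh38), capitals mark the 16 letters of the stem-loop (GG, 2 bases of any kind, CTT, 1 of any kind, T, 1 of any kind, AG, 1 of any kind, GCC):
H2AC4, chr6:26033093-26033117, minus strand: caaaGGCTCTTTTCAGAGCCaccta
H4C11, chr6:27824455-27824479, plus strand: aaaaGGCCCTTTTCAGGGCCaccct
H2AC12, chr6:27147542-27147562, plus strand: caaaGGCTCTTTTCAGAGCCa
All 36 tested histones of this class held the letters on the transcript strand, as did 1 of 11 replacement histones, H2AX (9.09%), and 50 of 14371 transcripts searched (0.348%).

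By class medians and calls, mRNAs for cytosolic and mitochondrial ribosomal proteins, ribosome assembly, mitochondrial import and replication-dependent histones were lower in siRNAG5 polysomes. Those of the integrated stress response and of p53 targets were higher. Without Ctrl 2, 0 genes were called lower among both kinds of ribosomal proteins and these histones. Calls required an edgeR p under 0.05 after Benjamini-Hochberg adjustment and a log2 FC beyond 0.5 in either direction. Of the 14420 genes, 577 were called lower (4.00%) and 569 higher (3.95%), and these shares are the background for every class below. Groups did not overlap in 1233 genes that were lower (8.55%) and 1396 that were higher (9.68%). The median log2 FC of all genes was 0.034. Of the 1146 called genes, 212 were in a class. The medians of 28 classes were below 0 and those of 15 above it, as the plot of class medians shows.

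**Figure D1:**
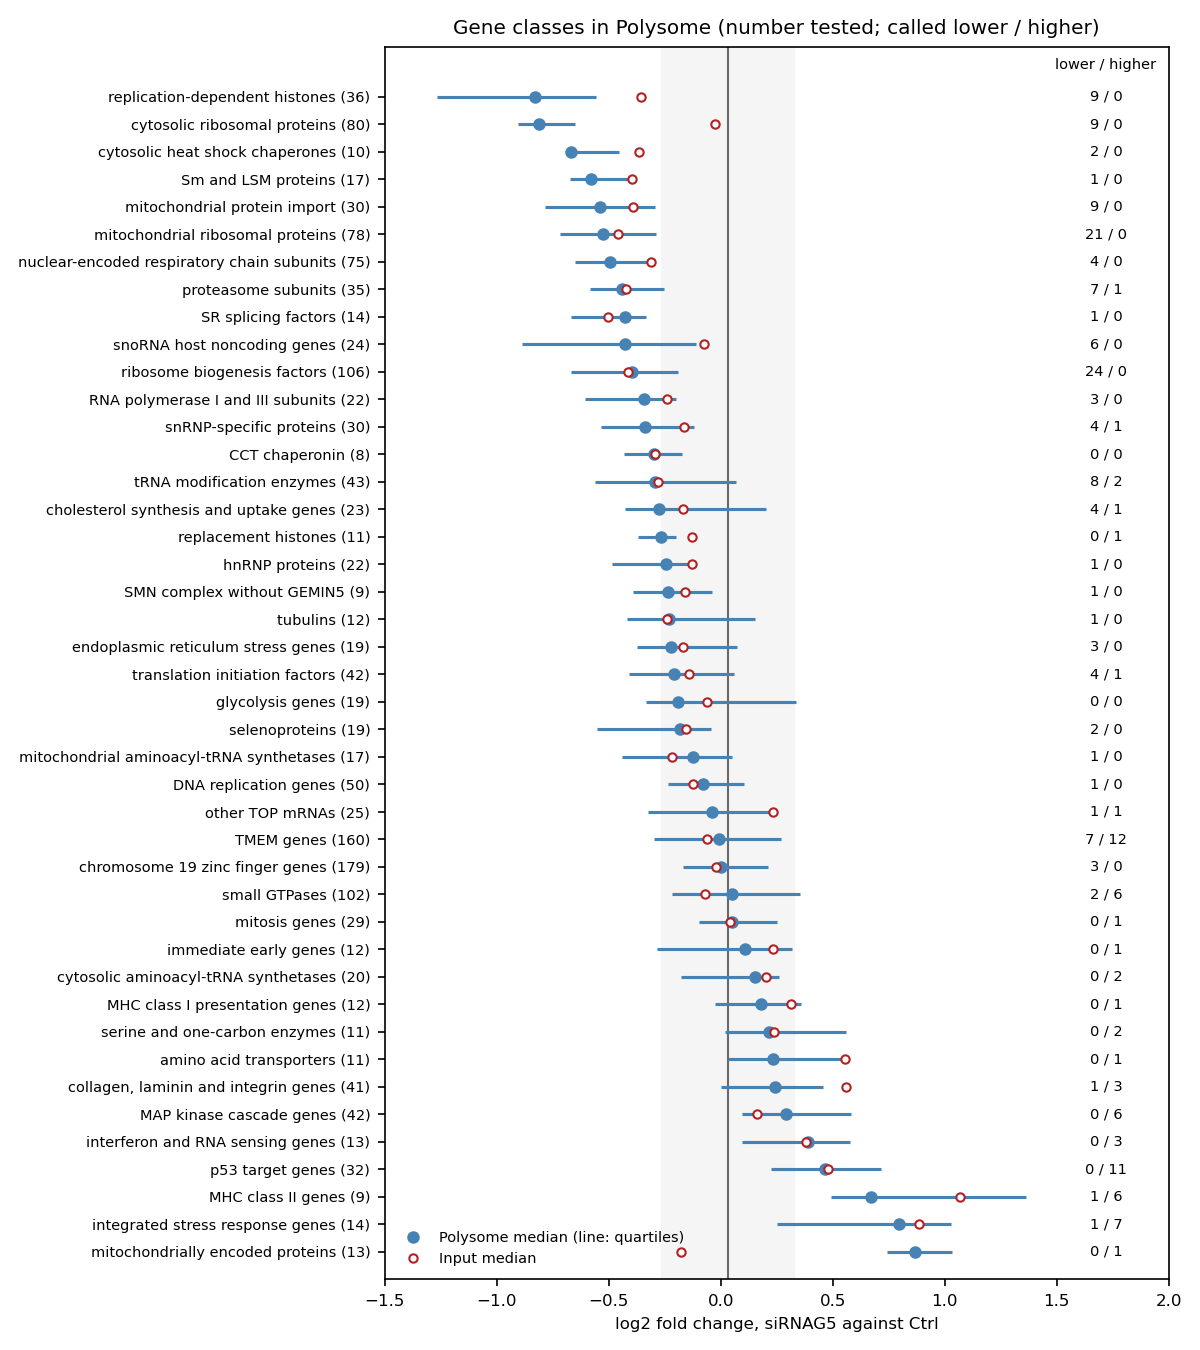
Median log2 FC (siRNAG5 against Ctrl) of the 43 gene classes, with filled points and quartile lines for Polysome, open points for Input medians, the number of genes tested behind each name and the calls at the right. The vertical line is the median of all genes (0.034) and the shaded band their quartiles (-0.26 to 0.33). Ribosomal proteins (median -0.81) and replication-dependent histones (-0.83) stand farthest below 0 and mitochondrially encoded genes (0.87) and integrated stress response genes (0.80) farthest above, and with total reads as the scale the median of all genes moves up by 0.347.

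The libraries held between 11145324 and 16884295 reads on genes, which carry no molecular identifiers. Ctrl 1, siRNAG5 1 and siRNAG5 4 stood apart from the others on the second principal component, with scores of 18.3, 41.0 and 38.6 against -36.5 to -9.92, so that this split held libraries of both treatments. In the fits with the library set as a term, these 3 libraries formed a set, Ctrl 3, Ctrl 4, siRNAG5 2 and siRNAG5 3 formed the other, and Ctrl 2 was left out. The sets were read from the spread of these same libraries, not from labels. Larger call counts in those fits, or without the 3 libraries, are therefore no separate support. The first component put all Ctrl libraries (-48.4 to -7.47) below all siRNAG5 libraries (3.00 to 48.4). TMM factors were 0.840, 0.778, 1.01 and 0.932 in Ctrl and 1.05, 1.23, 1.23 and 1.01 in siRNAG5, and with total reads as the scale the median of all genes rose to 0.381 and the calls became 207 lower and 2307 higher. Relative to the median of all genes, the medians of all 43 classes kept their side under both scales. A change of scale moves all genes by nearly the same amount, so this could hardly have come out otherwise. Without Ctrl 2 the calls dropped to 113 lower and 76 higher, and with the library set as a term they were 1299 and 1476. Reads with several alignments, kept apart from the gene counts by the authors, made up 21.2 to 32.8% in Ctrl and 26.3 to 42.4% in siRNAG5, so genes with near-identical copies are uncertain. Reads of liver and plasma protein genes, present in all Ctrl libraries, were mostly absent from siRNAG5, and their values are given after the classes.

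Cytosolic ribosomal proteins, which form the large and small ribosomal subunits, were lower as a class. All 80 tested genes had a log2 FC below 0, with a median of -0.81 in Polysome and -0.028 in Input, and 9 were called lower (11.2%, against 4.00% of all genes) and 0 higher. In 23 of the 80 each siRNAG5 library was below each Ctrl library, against 8.55% of all genes. The 48 large-subunit genes had a median of -0.80 and the 32 small-subunit genes one of -0.83. RPL35A (ENSG00000182899, chr3:197950190-197956610), a large-subunit protein, was at 2411, 2985, 1606 and 1906 CPM in Ctrl 1 to 4 and 1271, 789, 766 and 1431 CPM in siRNAG5 1 to 4. Its Ctrl libraries were all above its siRNAG5 libraries, the lowest Ctrl value being that of Ctrl 3 and the highest siRNAG5 value that of siRNAG5 4 (log2 FC -1.06, SE 0.27, adjusted p = 0.0362). RPL21 and RPL35 fell by a like amount (log2 FC -1.05 and -1.05, adjusted p = 0.0374 and 0.0408), and RPS26, RPL36AL, RPS9, RPL38 and RPL6 were also called.

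As a share of all reads on genes, before TMM, ribosomal proteins took 23.4, 24.1, 18.6 and 20.8% in Ctrl 1 to 4 and 19.5, 13.5, 13.4 and 19.8% in siRNAG5 1 to 4. The groups overlapped on this scale, because Ctrl 3 was below siRNAG5 1 and siRNAG5 4. Within the set of Ctrl 1, siRNAG5 1 and siRNAG5 4, the Ctrl library was the higher, and so were Ctrl 3 and Ctrl 4 over siRNAG5 2 and siRNAG5 3 in the other set. With the set, which was chosen from these data, as a term, the median log2 FC was -0.83 with 70 called lower. Without the 3 libraries of the first set it was -1.23 with 76. The count was 0 without Ctrl 2 and 30 without siRNAG5 4, and DESeq2 called 56. Ribosomal protein transcripts are short (median 781.5 bases against 2978 for all genes), and with offsets for length and GC content the median was -0.54, with 36 called.

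**Figure D2:**
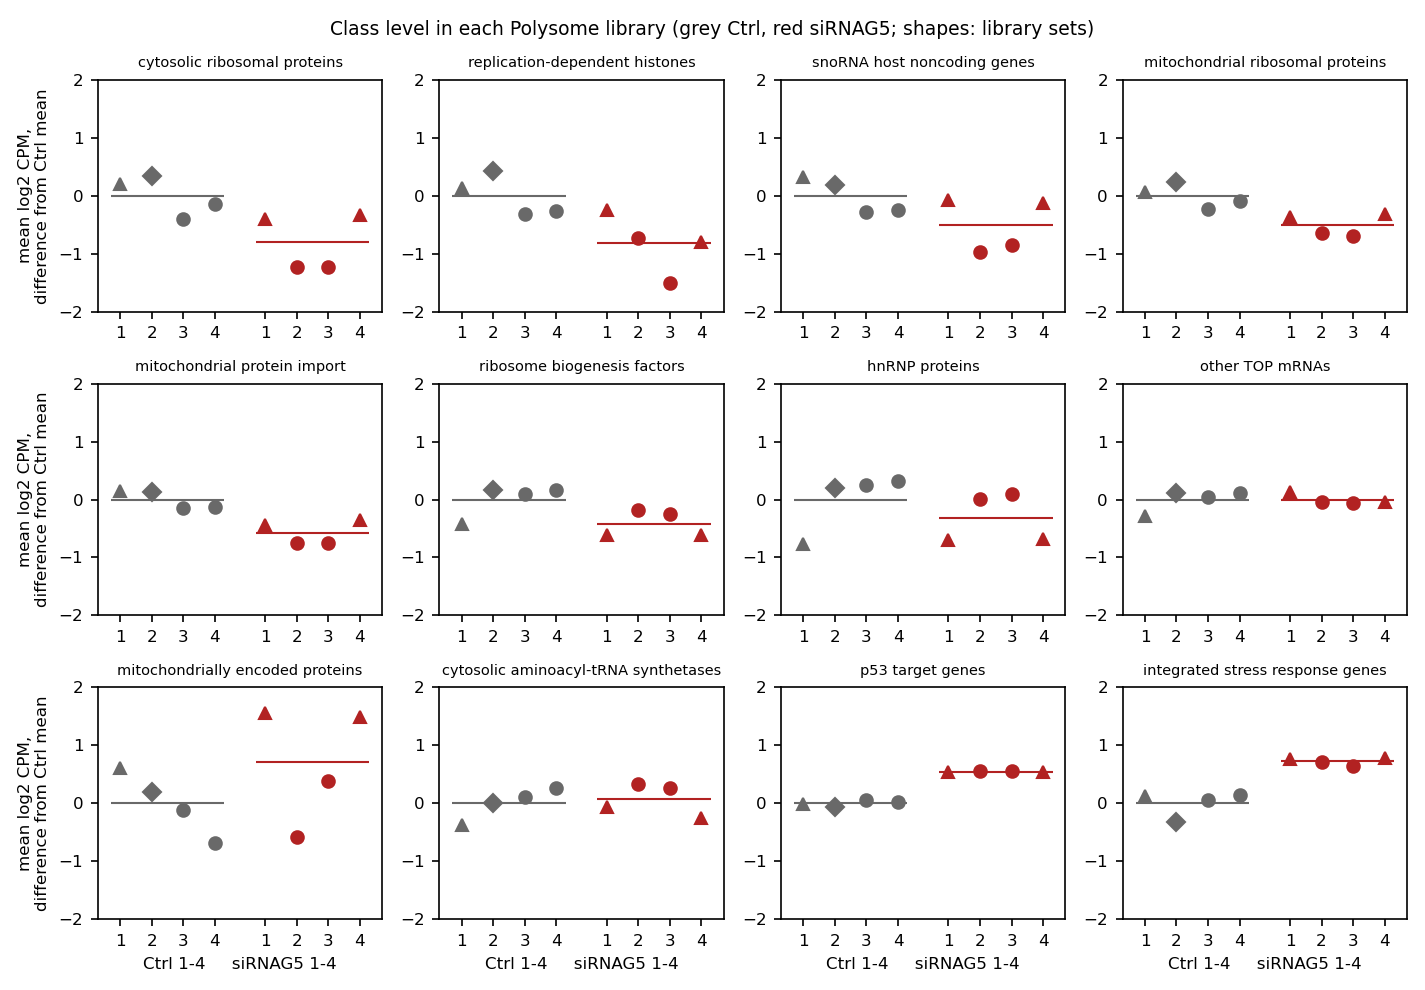
Mean log2 CPM of 12 gene classes in each polysomal library, as the difference from the Ctrl mean of the class, with a point per library and a line at each group mean. Triangles mark Ctrl 1, siRNAG5 1 and siRNAG5 4, circles the other set and the diamond Ctrl 2. The groups do not overlap for p53 targets, integrated stress response genes, mitochondrial ribosomal proteins and mitochondrial import. They overlap in the other classes shown. For ribosomal proteins Ctrl 3 (10.69 log2 CPM) lies below siRNAG5 4 (10.76), and for replication-dependent histones Ctrl 3 (1.97) lies below siRNAG5 1 (2.04).

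Other TOP mRNAs, which encode elongation factors, poly(A)-binding protein and similar parts of the machinery, did not move together. Of 25 tested, 13 were below 0 and 12 above it, with a median of -0.038 (Input 0.23) that turned to 0.31 with total reads and to 0.069 with the set as a term. One gene was called in each direction. EEF1D, an exchange factor subunit for elongation factor eEF1A, was at 550.4, 733, 537 and 648 CPM in Ctrl 1 to 4 and 373, 309, 287 and 429 CPM in siRNAG5 1 to 4 and fell (log2 FC -0.82, SE 0.18, adjusted p = 0.022), with a log2 FC of -0.036 in Input. EEF2, which moves the ribosome along the mRNA, was at 853, 799, 916 and 968 CPM in Ctrl 1 to 4 and 1686, 1289, 1161 and 1584 CPM in siRNAG5 1 to 4 and rose (log2 FC 0.69, SE 0.18, adjusted p = 0.0384), with a log2 FC of 0.80 in Input. Both groups of libraries were separate for each gene, so 2 mRNAs of this list lay on opposite sides of their Ctrl values in Polysome. In Input, EEF2 rose by at least as much as in Polysome, whereas EEF1D hardly moved.

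Translation initiation factors had a median of -0.21 over 42 genes (0.15 with total reads), with 4 called lower (9.52%) and 1 higher. EIF5A, the hypusinated factor that helps peptide bond formation, was at 2652, 2982, 2154 and 2213 CPM in Ctrl 1 to 4 and 1286, 1370.0, 1478 and 1741 CPM in siRNAG5 1 to 4 and fell (log2 FC -0.77, SE 0.19, adjusted p = 0.0349). EIF4E2, a cap-binding protein, and EIF2B1, a subunit of the exchange factor for eIF2, fell too (log2 FC -0.68 and -0.67, adjusted p = 0.0376 and 0.0424), as did EIF3G. EIF4A2, an RNA helicase of the cap-binding complex, was at 183, 166, 153 and 164 CPM in Ctrl 1 to 4 and 287, 264, 217 and 241 CPM in siRNAG5 1 to 4 and rose (log2 FC 0.60, SE 0.14, adjusted p = 0.0277). Cytosolic aminoacyl-tRNA synthetases, which charge tRNAs, had 0 of 20 called lower and 2 higher, CARS1 for cysteine (log2 FC 0.75, adjusted p = 0.037) and MARS1 for methionine (0.71, 0.0412). CARS1 was at 22.8, 24.5, 34.8 and 34.2 CPM in Ctrl 1 to 4 and 44.9, 54.8, 58.6 and 37.5 CPM in siRNAG5 1 to 4, with all siRNAG5 libraries on the upper side. MARS1 overlaps DDIT3 on the opposite strand, and the sources used here do not give the strand setting of the counting.

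Ribosome biogenesis factors, the nucleolar proteins that process ribosomal RNA and assemble subunits, were lower. Of 106 tested genes 24 were called lower (22.6% against 4.00%) and 0 higher, 95 were below 0, and the median was -0.40 in Polysome (-0.047 with total reads) and -0.41 in Input. The class means overlapped between groups, with Ctrl 1 (5.43 log2 CPM) below siRNAG5 2 (5.67) and siRNAG5 3 (5.60). NOP16, a nucleolar assembly factor of the large subunit, was at 338, 368, 242 and 273 CPM in Ctrl 1 to 4 and 104, 99.0, 96.4 and 143 CPM in siRNAG5 1 to 4 and fell (log2 FC -1.47, SE 0.19, adjusted p = 0.0019). NOL12, a nucleolar RNA-binding protein, was at 2.35, 3.27, 2.08 and 2.01 CPM in Ctrl 1 to 4 and 0.528, 0.944, 0.693 and 1.17 CPM in siRNAG5 1 to 4 (log2 FC -1.52, SE 0.30, adjusted p = 0.0162). RRS1, which helps bring the 5S particle into the large subunit, fell too (log2 FC -1.24, adjusted p = 0.00885). In all of these the lowest Ctrl library was above the highest siRNAG5 library. Between 5 (without Ctrl 2) and 30 factors were called when 1 library was left out.

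The subunits of RNA polymerases I and III, which transcribe ribosomal and transfer RNAs, had 3 of 22 called lower (13.6%) and a median of -0.34 (0.013 with total reads). POLR2L, a small subunit shared with RNA polymerase II, was at 966, 846, 556 and 558 CPM in Ctrl 1 to 4 and 367, 179.5, 218 and 454 CPM in siRNAG5 1 to 4 and fell (log2 FC -1.26, SE 0.30, adjusted p = 0.03). POLR1G, a subunit of RNA polymerase I, was also called, with overlapping groups (log2 FC -0.82, adjusted p = 0.0357). Noncoding host genes of small nucleolar RNAs, many of which also begin with a pyrimidine run, had 6 of 24 called lower (25%), with a median of -0.43 and one of -0.073 in Input. SNHG19 was at 26.5, 22.3, 9.76 and 11.96 CPM in Ctrl 1 to 4 and 7.45, 3.68, 4.21 and 9.36 CPM in siRNAG5 1 to 4 (log2 FC -1.51, SE 0.37, adjusted p = 0.0314). Ctrl 1 and Ctrl 2 were the highest of its libraries, and its lowest Ctrl value, in Ctrl 3, was close to siRNAG5 4. Between 1 (without Ctrl 2 or siRNAG5 3) and 7 host genes were called lower with 1 library left out. SNHG9 and SNHG10 fell too (log2 FC -1.29 and -1.25, adjusted p = 0.0421 and 0.0196).

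Enzymes that modify tRNA bases moved in both directions, with 8 of 43 called lower (18.6%) and 2 higher. Their median was -0.29 (-0.28 in Input and 0.057 with total reads). PUS1, a pseudouridine synthase, was at 129, 143, 125 and 124 CPM in Ctrl 1 to 4 and 50.8, 61.1, 57.7 and 67.5 CPM in siRNAG5 1 to 4 and fell (log2 FC -1.14, SE 0.13, adjusted p = 0.00107). Its values were tight within each group and far apart between them. Between 2 (without Ctrl 2) and 10 of the enzymes were called lower with 1 library left out. TRMT61A, which methylates adenosine in tRNA, and METTL1, which makes 7-methylguanosine, also fell (log2 FC -0.96 and -0.88, adjusted p = 0.00822 and 0.0126). PUS10, another pseudouridine synthase, was at 2.35, 3.18, 3.67 and 2.77 CPM in Ctrl 1 to 4 and 6.33, 5.02, 5.75 and 5.67 CPM in siRNAG5 1 to 4 and rose (log2 FC 0.91, SE 0.20, adjusted p = 0.0218), as did TRMT11, a guanosine methyltransferase (log2 FC 0.58, adjusted p = 0.0357).

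Replication-dependent histones, whose proteins package newly made DNA, were lower in the polysomal pool. Of 65 listed genes, 36 had enough reads, and of these 9 were called lower (25% against 4.00%) and 0 higher. The median was -0.83 in Polysome and -0.36 in Input, and 34 of 36 were below 0. In 11 of the 36 each siRNAG5 library was below each Ctrl library, against 8.55% of all genes. The class means overlapped, with siRNAG5 1 (2.04 log2 CPM) above Ctrl 3 (1.97) and Ctrl 4 (2.02). H4C11, a histone H4 gene, was at 11.1, 9.20, 7.89 and 9.38 CPM in Ctrl 1 to 4 and 3.36, 2.78, 1.81 and 5.21 CPM in siRNAG5 1 to 4 and fell (log2 FC -1.51, SE 0.28, adjusted p = 0.0129), with a log2 FC of 0.42 in Input. Its Ctrl values lay between 7.89 and 11.1 CPM and its highest siRNAG5 value was 5.21, so the groups were well apart for this gene. H2AC4, the gene with the largest change, was at 1.71, 2.41, 1.04 and 0.957 CPM in Ctrl 1 to 4 and 0.528, 0.497, 0.320 and 0.585 CPM in siRNAG5 1 to 4 (log2 FC -1.65, SE 0.38, adjusted p = 0.0259), and H2AC12 followed (log2 FC -1.47, adjusted p = 0.0194). In Input, H2AC12 was lower too, with a log2 FC of -0.73, and H2AC4 had no value. By type, the medians were -0.91 for 9 H2A genes, -0.72 for 10 H2B genes, -1.08 for 6 H3 genes and -0.74 for 8 H4 genes, and 0.12 for the 3 linker histone H1 genes, of which 0 were called.

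These histone values are those of RNA caught by a poly(A) selection, and genes of the same type are close copies that can share reads. Histone transcripts are short (median 486 bases), and with the length and GC offsets the median was -0.40 with 7 called lower. The call count was 17 with the library set as a term and 0 without Ctrl 2. Replacement histones, which are made outside DNA replication and from polyadenylated mRNAs, had 0 of 11 called lower, with a median of -0.27 (0.09 with total reads). Of 50 DNA replication genes, only POLE4, a small subunit of DNA polymerase epsilon, was called in the 8-library fit, and it fell (log2 FC -1.17, SE 0.28, adjusted p = 0.0312).

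**Figure D3:**
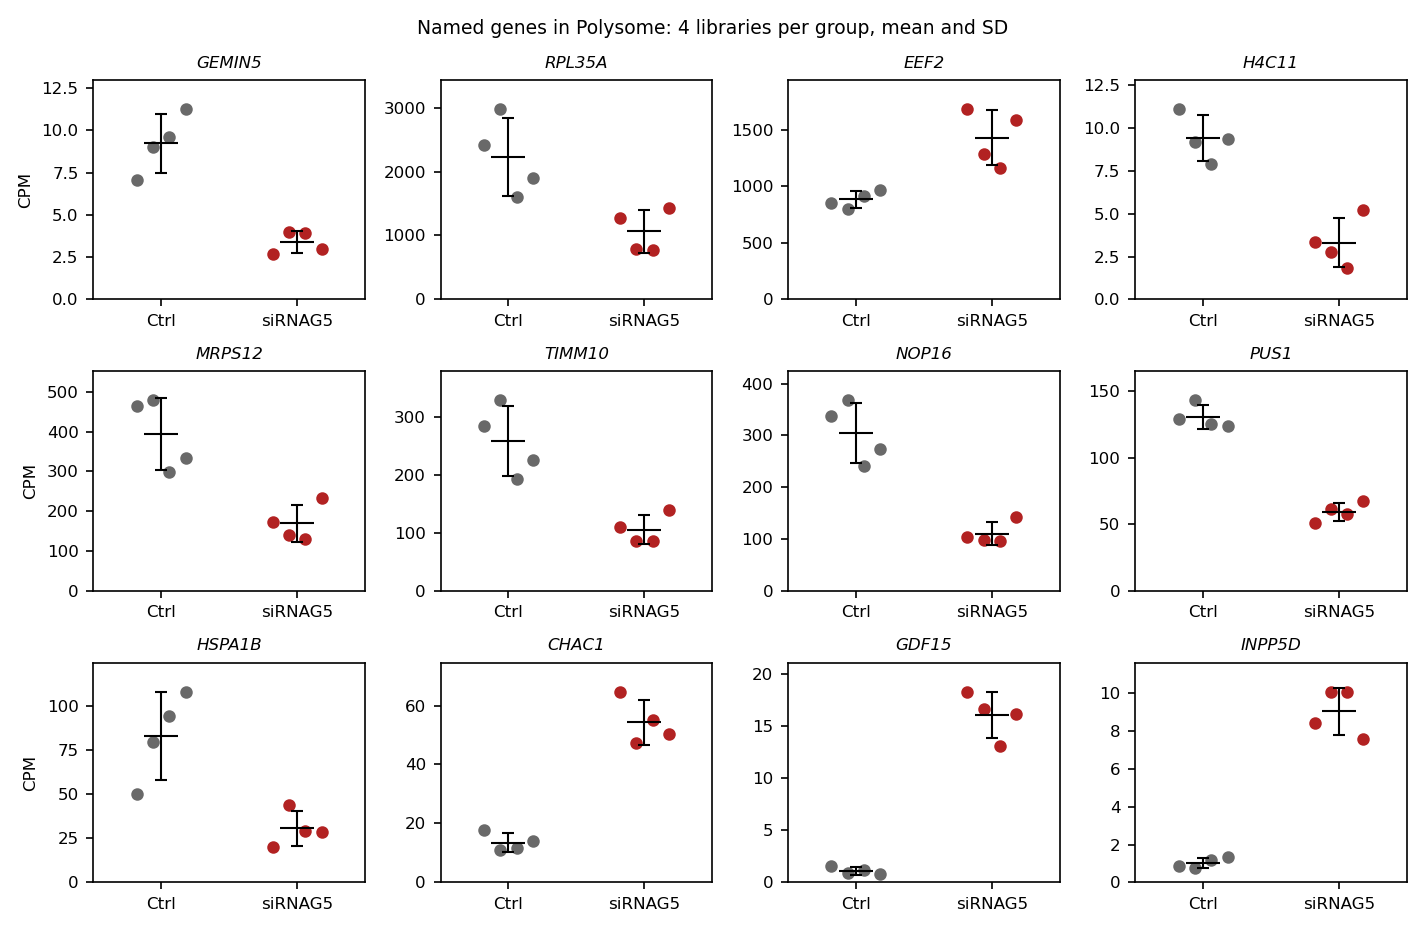
CPM (linear axes from 0) of 12 named genes in the 4 Ctrl and 4 siRNAG5 libraries of Polysome, with a point per library and the mean and SD in black. GEMIN5, RPL35A, H4C11, MRPS12, TIMM10, NOP16, PUS1 and HSPA1B have every siRNAG5 point below every Ctrl point, and EEF2, CHAC1, GDF15 and INPP5D have every siRNAG5 point above.

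Within the SMN complex, which Gemin5 itself belongs to, 1 of 9 other genes was called. The median was -0.23 (-0.16 in Input and 0.12 with total reads). GEMIN6, which forms an Sm-like pair with another member, was at 187, 190.1, 122 and 141 CPM in Ctrl 1 to 4 and 90.3, 71.3, 65.0 and 95.8 CPM in siRNAG5 1 to 4 and fell (log2 FC -0.99, SE 0.19, adjusted p = 0.0134), with a log2 FC of -0.95 in Input. Sm and LSM proteins, the ring-forming cargo of the complex, had a median of -0.58 over 17 genes and 1 called, SNRPF (SmF), at 959.6, 936, 677 and 796 CPM in Ctrl 1 to 4 and 495, 404, 373 and 564 CPM in siRNAG5 1 to 4 (log2 FC -0.88, SE 0.19, adjusted p = 0.0204). Its highest siRNAG5 library was below its lowest Ctrl library. Of the 17 genes, 8 were called lower by DESeq2, 11 with the library set as a term, 15 without Ctrl 1, siRNAG5 1 and siRNAG5 4, and 0 without Ctrl 2, siRNAG5 1, siRNAG5 2 or siRNAG5 3. Among 30 proteins particular to single spliceosomal particles, 4 were called lower (13.3%) and 1 higher, with a median of -0.34 (0.018 with total reads). SF3B5, a small subunit of the branch-site complex SF3b, was at 942, 1036, 646 and 764 CPM in Ctrl 1 to 4 and 489, 370.3, 356 and 601 CPM in siRNAG5 1 to 4 and fell (log2 FC -0.90, SE 0.22, adjusted p = 0.0319). PRPF31 of the U4/U6 particle and PHF5A of SF3b also fell (log2 FC -0.74 and -0.73, adjusted p = 0.0166 and 0.0243), and SNRNP48 of the minor spliceosome rose (0.71, 0.0102).

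SR splicing factors had 1 of 14 called, SRSF2, which was at 544, 892, 659 and 757 CPM in Ctrl 1 to 4 and 326, 421, 429.8 and 311 CPM in siRNAG5 1 to 4 and fell (log2 FC -0.94, SE 0.20, adjusted p = 0.0181), and their median was -0.43 (-0.50 in Input). Of 22 hnRNP proteins, HNRNPAB was called lower (log2 FC -0.71, adjusted p = 0.0333), and the class median of -0.24 turned to 0.13 with total reads. Ctrl 1 stood apart in this class, with a mean of 7.101 log2 CPM against 8.066 to 8.183 in the other Ctrl libraries.

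Mitochondrial ribosomal proteins, which are made in the cytosol and translate the mitochondrial genome's mRNAs, were lower. Of 78 tested genes 21 were called lower (26.9% against 4.00%) and 0 higher. In 34 of the 78 all siRNAG5 libraries were below all Ctrl libraries, against 8.55% of all genes. The median was -0.53, and -0.46 in Input. MRPS12, a small-subunit protein, was at 464, 479, 299 and 335 CPM in Ctrl 1 to 4 and 172, 141, 130.4 and 233.7 CPM in siRNAG5 1 to 4 and fell (log2 FC -1.22, SE 0.22, adjusted p = 0.0125). MRPL23 and MRPL41 of the large subunit fell too (log2 FC -1.21 and -1.08, adjusted p = 0.0174 and 0.0351). Large- and small-subunit genes had medians of -0.53 and -0.52. Of 69 mitochondrial ribosomal protein genes with a RefSeq start sequence, 5 began with the pyrimidine run defined above (7.25%). The count was 0 without Ctrl 2 and 31 at most with another library left out.

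Genes of mitochondrial protein import, the translocases that carry proteins across the outer (TOMM) and inner (TIMM) membranes, had 9 of 30 called lower (30%) and a median of -0.54 (-0.39 in Input). TIMM10, a chaperone of the space between the membranes, was at 284, 328, 193 and 225 CPM in Ctrl 1 to 4 and 110.4, 86.0, 86.0 and 138 CPM in siRNAG5 1 to 4 and fell (log2 FC -1.29, SE 0.21, adjusted p = 0.00821). TIMM13 and the outer-membrane receptor TOMM22 fell as well (log2 FC -1.14 and -1.04, adjusted p = 0.0297 and 0.0215). The called genes were 6 of 15 TIMM genes, 2 of 8 TOMM genes and GRPEL1, a partner of the import motor, and 1 was left without Ctrl 2. Nuclear-encoded subunits of the respiratory chain had a median of -0.49 over 75 genes, 69 of them below 0, and 4 called lower (5.33% against 4.00%). This count depended on the fit, with 20 by DESeq2, 35 with the library set as a term, 52 without Ctrl 1, siRNAG5 1 and siRNAG5 4, and 0 to 15 with 1 library left out, 0 in 6 of these 8 fits. With length and GC offsets the median was -0.25. NDUFB10 of complex I was at 1475, 1321, 852 and 918 CPM in Ctrl 1 to 4 and 689, 428, 426 and 743 CPM in siRNAG5 1 to 4 and fell (log2 FC -0.998, SE 0.25, adjusted p = 0.0364). ATP5MC1, the ring subunit of ATP synthase, and NDUFS6 of complex I also fell (log2 FC -0.89 and -0.82, adjusted p = 0.0364 and 0.0441), and NDUFA8 was the remaining call. By complex, the medians were -0.48 for I, -0.11 for II, -0.72 for III, -0.52 for IV and -0.59 for V.

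The 13 protein-coding genes of the mitochondrial genome lay on the other side, with all log2 FC above 0 and a median of 0.87 (Input -0.18), but the groups overlapped in each of them. MT-ND4L, a complex I subunit and the only one called in the 8-library fit, was at 15.9, 9.12, 14.3 and 4.02 CPM in Ctrl 1 to 4 and 41.8, 11.03, 30.8 and 56.0 CPM in siRNAG5 1 to 4 (log2 FC 1.68, SE 0.47, adjusted p = 0.048), and it is named because it is the single gene behind that count. Ctrl 1 was above siRNAG5 2, and siRNAG5 2 was far below the other siRNAG5 libraries. The class median was 0.60 with the library set as a term, where 8 were called higher, and 0.15 without Ctrl 1, siRNAG5 1 and siRNAG5 4, where 0 were. With 1 surrogate variable 10 were called higher, and by DESeq2 0. These mRNAs are translated on mitochondrial ribosomes, not on cytosolic polysomes, so their level here is that of RNA that sedimented with the pool. Mitochondrial aminoacyl-tRNA synthetases had 1 of 17 called lower, CARS2 (log2 FC -0.70, adjusted p = 0.025), and a median of -0.12 (0.23 with total reads).

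Heat shock chaperones of the cytosol, which refold proteins, had a median of -0.67 over 10 genes, with 2 called lower. HSPA1B, an inducible Hsp70 with a near-identical copy in the genome, was at 49.9, 80.0, 94.5 and 108 CPM in Ctrl 1 to 4 and 20.2, 44.1, 29.5 and 28.9 CPM in siRNAG5 1 to 4 and fell (log2 FC -1.44, SE 0.26, adjusted p = 0.0126). Ctrl 1 was its lowest Ctrl library and siRNAG5 2 its highest siRNAG5 library. DNAJB1, its co-chaperone, fell by less (log2 FC -0.68, adjusted p = 0.013). The CCT chaperonin, which folds actin and tubulin, had 0 of 8 called. Its most abundant members were CCT7 (log2 FC -0.42, adjusted p = 0.334) and CCT4 (-0.38, 0.26), and its median of -0.30 turned to 0.07 with total reads.

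Proteasome subunits had 7 of 35 called lower (20%), 1 higher and a median of -0.44. PSMC3, an ATPase of the regulatory particle, was at 307, 397, 294 and 342 CPM in Ctrl 1 to 4 and 184, 209.8, 205 and 180.3 CPM in siRNAG5 1 to 4 and fell (log2 FC -0.78, SE 0.15, adjusted p = 0.0134). PSMC4, another of the ATPases, and PSMD3 fell also (log2 FC -0.71 and -0.72, adjusted p = 0.0243 and 0.0452), and 3 of the 6 ATPase genes were called. Across the class, 0 were called lower without Ctrl 2 or with total reads, 1 without Ctrl 4, siRNAG5 1 or siRNAG5 3, and 15 by DESeq2. PSMB9, a subunit of the immunoproteasome that makes peptides for MHC class I, went the other way, with 3.85, 4.04, 1.45 and 2.77 CPM in Ctrl 1 to 4 and 8.24, 6.86, 5.54 and 9.59 CPM in siRNAG5 1 to 4 (log2 FC 1.33, SE 0.30, adjusted p = 0.0238). Endoplasmic reticulum stress genes had 3 of 19 called lower and 0 higher, and a median of -0.22 that was -0.06 with the library set as a term and 0.15 with total reads. SDF2L1, a chaperone partner in the endoplasmic reticulum, was at 234.5, 226, 162 and 155 CPM in Ctrl 1 to 4 and 102, 81.1, 75.4 and 152 CPM in siRNAG5 1 to 4 and fell (log2 FC -0.92, SE 0.23, adjusted p = 0.0362). MANF and CRELD2, secreted products of the unfolded protein response, fell too (log2 FC -0.83 and -0.77, adjusted p = 0.0417 and 0.0336).

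Genes of the integrated stress response, the ATF4-driven programme that follows phosphorylation of eIF2, were mostly higher. Of 14 tested, 7 were called higher (50% against 3.95%) and 1 lower, with a median of 0.80 in Polysome and 0.89 in Input. NUPR1, a small stress-induced transcriptional regulator, was at 6.84, 5.25, 4.08 and 4.88 CPM in Ctrl 1 to 4 and 34.6, 15.9, 18.5 and 22.3 CPM in siRNAG5 1 to 4 and rose (log2 FC 2.12, SE 0.26, adjusted p = 0.0014), with a log2 FC of 2.25 in Input. Its lowest siRNAG5 library stood well above its highest Ctrl library. CHAC1, which breaks down glutathione, was at 17.6, 10.8, 11.6 and 14.1 CPM in Ctrl 1 to 4 and 64.7, 47.1, 55.1 and 50.2 CPM in siRNAG5 1 to 4 (log2 FC 2.01, SE 0.18, adjusted p = 0.000134), and DDIT3 (CHOP), a transcription factor of the programme, rose too (log2 FC 1.17, adjusted p = 0.0242). The other 4 called higher were JDP2, ATF3, CTH and DDIT4, with CTH overlapping between groups. ATF4 itself, looked up after its values were seen, had a log2 FC of 0.19 (adjusted p = 0.628).

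ATF5, a transcription factor of the same list whose own translation responds to phosphorylated eIF2, was at 13.7, 17.9, 12.3 and 11.4 CPM in Ctrl 1 to 4 and 5.74, 4.47, 6.07 and 8.07 CPM in siRNAG5 1 to 4 and fell (log2 FC -1.18, SE 0.21, adjusted p = 0.0122), with a log2 FC of -1.02 in Input. It was the only called member on that side in the 8-library fit. Between 3 (without Ctrl 2) and 6 of the class were called higher with 1 library left out. The letters TGATGNAA, a form of the composite site that ATF4 and its partners bind, were looked for on both strands of the 300-base RefSeq promoters (250 bases before the start to 50 after) and are in capitals here for the 2 members that held them:
ATF3, chr1:212565205-212565234, plus strand: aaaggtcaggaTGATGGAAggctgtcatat
CHAC1, chr15:40953251-40953280, minus strand: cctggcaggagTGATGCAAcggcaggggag
Of 13 members with a promoter sequence 2 held the letters (15.4%), against 169 of 10701 promoters of tested genes (1.58%). In ATF3 they lay 191 bases before the start and in CHAC1 209 bases before it, on the opposite strand there. A match of letters is no measure of binding.

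Targets of p53, the transcription factor that stops the cell cycle after DNA damage or nucleolar stress, were higher. Of 32 tested genes 11 were called higher (34.4% against 3.95%) and 0 lower, and the median was 0.47 in Polysome and 0.48 in Input. GDF15, a secreted stress cytokine, was at 1.60, 0.860, 1.18 and 0.765 CPM in Ctrl 1 to 4 and 18.3, 16.7, 13.1 and 16.2 CPM in siRNAG5 1 to 4 and rose (log2 FC 3.87, SE 0.24, adjusted p = 1.57e-05), with 3.57 in Input. Even its highest Ctrl library was far below its lowest siRNAG5 library. ZMAT3, an RNA-binding zinc finger protein, and TP53INP1, a p53-induced nuclear protein, rose as well (log2 FC 1.46 and 1.25, adjusted p = 0.0109 and 0.00859). The other 8 called were RRM2B, PMAIP1, SPATA18, GADD45A, BTG2, FDXR, CDKN1A and DDB2, among them the cyclin-dependent kinase inhibitor p21 (CDKN1A, log2 FC 0.61, adjusted p = 0.0218). Between 5 (without Ctrl 2) and 13 were called higher when 1 library was left out, and 0 lower in each of these fits.

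Serine and one-carbon enzymes, which supply methyl groups and nucleotide precursors, had 2 of 11 called higher and 0 lower, with a median of 0.21. The mitochondrial enzyme SHMT2 was at 114, 119, 160.2 and 168 CPM in Ctrl 1 to 4 and 276, 275, 261 and 189.5 CPM in siRNAG5 1 to 4 and rose (log2 FC 0.84, SE 0.18, adjusted p = 0.0215), and MTHFD2, the next enzyme of the pathway, rose also (log2 FC 0.81, adjusted p = 0.0105). Among 11 amino acid transporters, SLC7A3, which imports arginine and lysine, was called higher, at 2.89, 2.41, 3.25 and 3.63 CPM in Ctrl 1 to 4 and 7.45, 7.90, 7.19 and 4.33 CPM in siRNAG5 1 to 4 (log2 FC 1.14, SE 0.24, adjusted p = 0.0182), and the median was 0.23. Immediate early genes had 1 of 12 called, MYC, a transcription factor of growth, which rose (log2 FC 0.61, adjusted p = 0.0465).

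Genes of cholesterol synthesis and uptake had 4 of 23 called lower and 1 higher, with a median of -0.27 (0.094 with total reads). EBP, a sterol isomerase, was at 264, 268, 163 and 198 CPM in Ctrl 1 to 4 and 128, 114, 113 and 130.1 CPM in siRNAG5 1 to 4 and fell (log2 FC -0.88, SE 0.17, adjusted p = 0.0157), and ACAT2 and DHCR7, which catalyse an early and a late step of the pathway, fell as well (log2 FC -0.70 and -0.61, adjusted p = 0.0157 and 0.0306). STARD4, a cholesterol transport protein, rose (log2 FC 0.68, adjusted p = 0.0242). Glycolysis genes had 0 of 19 called, and their most abundant members GAPDH and TPI1 had log2 FC of -0.60 and -0.58 (adjusted p = 0.0987 and 0.0819). Selenoproteins had 2 of 19 called lower, the methionine sulfoxide reductase MSRB1 (log2 FC -0.86, adjusted p = 0.0345) and SELENOS of the endoplasmic reticulum (-0.60, 0.0487).

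MHC class II genes, which present peptides and are typical of immune cells, had a median of 0.67 (Input 1.07) over 9 tested of 15 listed, with 6 called higher (66.7%) and 1 lower. HLA-DOA was at 1.39, 1.12, 1.04 and 1.53 CPM in Ctrl 1 to 4 and 4.02, 2.88, 3.25 and 3.68 CPM in siRNAG5 1 to 4 and rose (log2 FC 1.45, SE 0.24, adjusted p = 0.00859). HLA-DRB5 and HLA-DPB1 rose too (log2 FC 1.38 and 1.36, adjusted p = 0.0475 and 0.0244), although these genes have close copies and their reads may be split between them. CD74, the invariant chain of class II, went the other way, at 2.35, 0.946, 2.08 and 1.53 CPM in Ctrl 1 to 4 and 0.132, 0.248, 0.373 and 0.117 CPM in siRNAG5 1 to 4 (log2 FC -2.90, SE 0.43, adjusted p = 0.00512), beside the liver and blood genes given below, and their part in its change was not tested. Every siRNAG5 library held it at under 0.4 CPM. Between 1 (without Ctrl 2) and 4 class II genes were called higher with 1 library left out, and 4 by DESeq2.

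Among 12 MHC class I presentation genes, PSMB9 was the 1 called, as given above, with a class median of 0.18. Interferon-induced and RNA-sensing genes had 3 of 13 called higher (23.1%), which are the neighbouring antiviral membrane proteins IFITM3, IFITM1 and IFITM2. IFITM3 was at 11.7, 9.37, 6.71 and 8.61 CPM in Ctrl 1 to 4 and 22.8, 13.5, 14.9 and 22.9 CPM in siRNAG5 1 to 4 and rose (log2 FC 1.03, SE 0.23, adjusted p = 0.0222), and IFITM1 and IFITM2, which are near-identical to it in part, had log2 FC of 0.91 and 0.87 (adjusted p = 0.0102 and 0.0192). Without Ctrl 2 or Ctrl 4, 1 gene of the class was called.

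MAP kinase cascade genes had 6 of 42 called higher (14.3%) and 0 lower, with a median of 0.29. MAPK15, an atypical member of the ERK family, was at 0.321, 0.602, 0.415 and 0.287 CPM in Ctrl 1 to 4 and 0.990, 2.04, 1.17 and 1.40 CPM in siRNAG5 1 to 4 and rose (log2 FC 1.75, SE 0.37, adjusted p = 0.0191). The count was 0 without Ctrl 2, 1 without siRNAG5 2, 2 without Ctrl 4 or siRNAG5 1, and 16 with total reads. MAPK10 (JNK3) and MAPK4 (ERK4) rose as well (log2 FC 1.42 and 1.38, adjusted p = 0.0252 and 0.0194). Of 41 collagen, laminin and integrin genes 3 were called higher and 1 lower, with a median of 0.24 (Input 0.56). COL9A2, a cartilage collagen chain, was at 1.93, 0.946, 1.73 and 0.765 CPM in Ctrl 1 to 4 and 3.17, 2.88, 3.41 and 3.33 CPM in siRNAG5 1 to 4 and rose (log2 FC 1.25, SE 0.29, adjusted p = 0.0272), as did the laminin chain LAMB1 (log2 FC 0.70, adjusted p = 0.0334). FN1, fibronectin, which the liver also releases into plasma, was at 22.0, 12.6, 12.1 and 16.4 CPM in Ctrl 1 to 4 and 5.08, 6.56, 6.13 and 5.79 CPM in siRNAG5 1 to 4 and fell (log2 FC -1.41, SE 0.21, adjusted p = 0.00534), with a log2 FC of 0.20 in Input, and the part of the liver genes below in it was not tested.

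Small GTPases had a median of 0.051 over 102 genes, with 6 called higher and 2 lower, close to the background shares. HRAS, a Ras oncogene product, was at 159, 167, 125 and 106 CPM in Ctrl 1 to 4 and 62.1, 43.1, 48.6 and 95.5 CPM in siRNAG5 1 to 4 and fell (log2 FC -1.16, SE 0.24, adjusted p = 0.0191), with ARL16 on the same side (log2 FC -0.82, adjusted p = 0.0457). RHEBL1, a relative of the mTORC1 activator RHEB, was at 2.89, 1.38, 2.35 and 2.30 CPM in Ctrl 1 to 4 and 6.33, 5.17, 4.69 and 6.55 CPM in siRNAG5 1 to 4 and rose (log2 FC 1.35, SE 0.24, adjusted p = 0.0117), with the vesicle traffic genes RAB33B and RAB2B (log2 FC 0.76 and 0.75, adjusted p = 0.04 and 0.0323). Genes named TMEM, for transmembrane proteins of mostly unassigned function, had 12 of 160 called higher (7.5%) and 7 lower (4.38%) around a median of -0.006 (0.34 with total reads). TMEM154 was at 0.107, 0.0860, 0.346 and 0.191 CPM in Ctrl 1 to 4 and 0.660, 0.944, 0.799 and 0.819 CPM in siRNAG5 1 to 4 and rose (log2 FC 2.02, SE 0.43, adjusted p = 0.0198), with TMEM132E and TMEM67, a protein of the cilium base (log2 FC 1.69 and 1.503, adjusted p = 0.0102 and 0.0147). TMEM208, which helps insert proteins into the endoplasmic reticulum, was at 238, 217, 139 and 160.5 CPM in Ctrl 1 to 4 and 99.2, 69.0, 67.9 and 111 CPM in siRNAG5 1 to 4 and fell (log2 FC -1.12, SE 0.22, adjusted p = 0.015), and so did TMEM104 and TMEM87A (log2 FC -0.81 and -0.72, adjusted p = 0.0477 and 0.0434).

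Zinc finger genes of chromosome 19, a large family of repressors, had 3 of 179 called lower and 0 higher, under the background share, and they lay around 0. ZNF480 was at 32.2, 26.2, 24.2 and 21.4 CPM in Ctrl 1 to 4 and 16.5, 12.6, 12.2 and 14.4 CPM in siRNAG5 1 to 4 and fell (log2 FC -0.90, SE 0.17, adjusted p = 0.0129), and ZNF296 and ZNF180 were the other two (log2 FC -0.87 and -0.78, adjusted p = 0.0314 and 0.0153). Mitosis genes had 1 of 29 called, the topoisomerase TOP2A, which rose with overlapping groups (log2 FC 0.76, adjusted p = 0.0471). Tubulins had 1 of 12 called, TUBB2A, at 47.0, 53.7, 47.3 and 53.2 CPM in Ctrl 1 to 4 and 28.6, 38.2, 34.5 and 32.9 CPM in siRNAG5 1 to 4 (log2 FC -0.58, SE 0.13, adjusted p = 0.0259), and a median of -0.23 (0.13 with total reads). Of the 41 classes with a call in the 8-library fit, 28 had none without Ctrl 2.

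Outside the lists, among called genes without overlap and with a mean of at least 1 log2 CPM, the largest change upward was that of INPP5D (ENSG00000168918), a phosphatidylinositol phosphatase best known from blood cells. It was at 0.855, 0.774, 1.18 and 1.34 CPM in Ctrl 1 to 4 and 8.44, 10.1, 10.1 and 7.60 CPM in siRNAG5 1 to 4 and rose (log2 FC 3.11, SE 0.23, adjusted p = 3.76e-05), with a log2 FC of 3.89 in Input. Its siRNAG5 libraries ranged from 7.60 to 10.1 CPM, well above the Ctrl maximum of 1.34 CPM. The long noncoding RNA LINC01411, the GTPase-activating protein gene AGAP2 and the hair keratin-associated gene KRTAP19-1 followed (log2 FC 2.10, 1.99 and 1.95). ASNSP1, a pseudogene of asparagine synthetase whose reads could be those of its parent gene, had 1.92, RENBP, a sugar epimerase, 1.80, the peptide hormone gene ADM2 1.76 and TXNIP, which binds thioredoxin and limits glucose uptake, 1.75. Their adjusted p by edgeR were 0.0155, 0.0117, 0.0182, 0.00501, 0.00775, 0.00885 and 0.00734 in that order.

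Downward, under the same limit on the mean level, A2M, a plasma protease inhibitor, is given with the liver genes below, and the unnamed genes ENSG00000284636 and ENSG00000272655 came next (log2 FC -1.700 and -1.64, adjusted p = 0.0182 and 0.00186). PRKAR1B, a regulatory subunit of protein kinase A, was at 17.6, 24.9, 13.8 and 15.7 CPM in Ctrl 1 to 4 and 3.96, 6.06, 8.52 and 6.55 CPM in siRNAG5 1 to 4 and fell (log2 FC -1.51, SE 0.25, adjusted p = 0.00859). ORAI1, the pore of the store-operated calcium channel, was at 78.9, 65.96, 42.3 and 46.6 CPM in Ctrl 1 to 4 and 21.2, 18.2, 18.5 and 27.8 CPM in siRNAG5 1 to 4 and fell (log2 FC -1.45, SE 0.22, adjusted p = 0.00567). In both genes every siRNAG5 library was on the low side. The antisense RNA EXOSC10-AS1, the UFM1 protease gene UFSP1 and CENPX, of the centromere and DNA repair, had log2 FC of -1.43, -1.42 and -1.37 (adjusted p = 0.0173, 0.00555 and 0.0252), and reads of the antisense RNA and its overlapping partner may not be told apart. Below that level, C4BPA, CES1 and AQP9 had larger differences and are given with the genes without a read in siRNAG5.

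Genes of liver and plasma proteins, which hepatocytes make in quantity, stood apart from all classes. All 73 listed had reads in Ctrl, 44 had none in siRNAG5, and of 34 tested 30 were called lower and 0 higher, which is 5.2% of the genes called lower. Genes tested without a read in siRNAG5 passed the filter through their Ctrl reads alone, so lower was the only call open to them. Their summed reads were 4064, 3541, 3141 and 3325 in Ctrl 1 to 4 and 1335, 1127, 1136 and 1620 in siRNAG5 1 to 4. ALB, serum albumin, had 584, 484, 482 and 450 reads in Ctrl and 0, 1, 2 and 0 in siRNAG5. APOB, the main protein of low-density lipoprotein, had 359, 250, 239 and 278 reads in Ctrl and 0 in each siRNAG5 library, which is at least 582.1-fold lower against a floor of 3 reads over the group. SERPINA1, a protease inhibitor of plasma, had 241, 164, 139 and 186 reads against 0, at least 377.4-fold lower on that floor. Reads of the 3 genes were present in every Ctrl library.

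APOC1, an apolipoprotein of the same list, had 841, 1132, 750 and 586 reads in Ctrl and 1020, 612, 732 and 1254 in siRNAG5 (adjusted p = 0.299 by edgeR). CPS1, an enzyme of the urea cycle, had 188, 185, 242 and 251 against 172, 331, 279 and 159 (adjusted p = 0.108). These 2 genes held 4559 of the 5218 liver reads left in siRNAG5, and their groups overlapped. Of the genes called lower, 18 had no read in siRNAG5, of which 14 were in the liver list, 0 in a class, and 4 in no list. The last 4 were A2M with 65, 56, 40 and 63 reads in Ctrl (at least 115.8-fold lower), C4BPA of the complement system (at least 64.1-fold), the carboxylesterase CES1 (at least 41.35-fold) and the channel AQP9 (at least 32.05-fold). Without the liver genes in the fit, 542 genes were called lower and 558 higher.

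**Figure D4:**
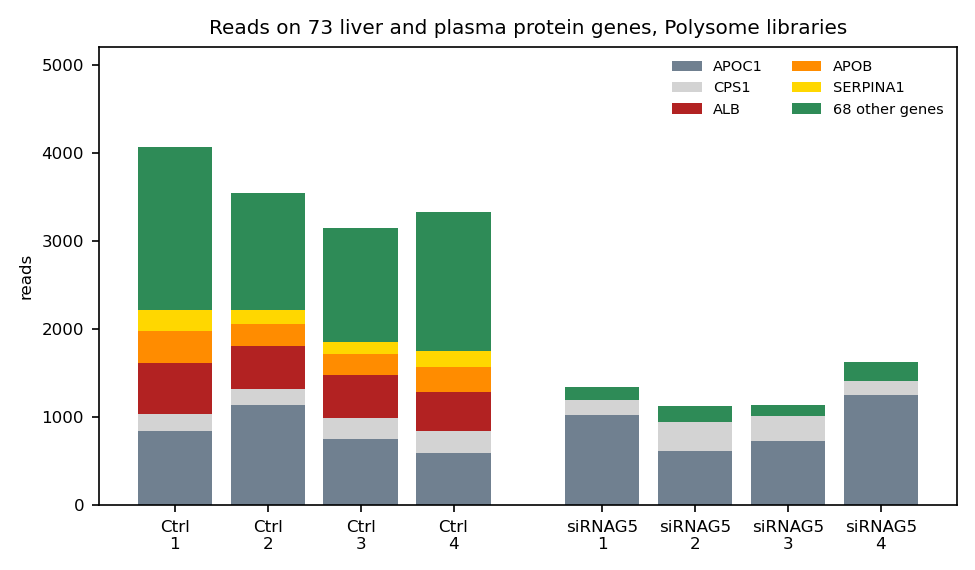
Stacked bars of the reads on 73 liver and plasma protein genes in each polysomal library, split into the 5 genes with most reads and the other 68 together. ALB, APOB and SERPINA1 have between 139 and 584 reads in each Ctrl library and at most 2 in a siRNAG5 library, whereas APOC1 and CPS1 overlap between the groups.

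Of 16 blood cell genes 7 had reads in Ctrl only, S100A9, HBB, S100A8, PTPRC, FCGR3A, CD3E and HBG2, and the summed level of the list was 9.83 to 12.3 reads per 1000000 in Ctrl and 6.87 to 7.82 in siRNAG5. The 8 genes chosen as markers of HEK-293 cells were all detected, at 116 to 257 reads per 1000000 in Ctrl and 206 to 406 in siRNAG5, and LIN28B, an RNA-binding protein of early development, was called higher. RN7SL2, an RNA of the signal recognition particle without a poly(A) tail, had 328, 336, 280 and 280 reads in Ctrl and 95, 167, 49 and 114 in siRNAG5, and it fell (log2 FC -2.20, adjusted p = 0.00299 by edgeR). Brain cell genes lay at 19.8 to 23.7 reads per 1000000 in Ctrl and 20.1 to 27.9 in siRNAG5, and OLIG2, a transcription factor of that list, fell (log2 FC -0.80, adjusted p = 0.04 by edgeR). The part of liver, blood and unselected RNA in the class values was not tested. The fit without liver genes cannot test it, because that fit drops the listed genes and leaves the reads of class genes unchanged.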

How the data were processed

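Polysomal RNA of 4 Ctrl and 4 siRNAG5 samples, which the study calls independent, was analysed, and replicate numbers come from the sample labels. The authors aligned the reads of stranded poly(A) libraries to GRCh38 with STAR 2.5.3a, obtained raw counts for each gene with QoRTs, which were deposited as 1 file per library. The 5 rows of each file that name no gene were left out. Reads that matched no gene made up 0.947 to 1.33% and ambiguous reads 4.14 to 6.06%.

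Of 58302 gene identifiers 57532 were named by GENCODE v44 (GRCh38), a later annotation than that of the authors. Under R 4.3.3, the quasi-likelihood test of edgeR 4.0.16 was run with treatment alone in the design, after filterByExpr and TMM, with a biological coefficient of variation of 0.216, and p-values were adjusted over all 14420 genes. Input was fitted alone in the same way. Classes are described by counts and medians, with no test of a class. Members, lists and rules were chosen with earlier results of these data known. Named genes were GEMIN5, up to 3 called members per class and direction with the largest change and no overlap between groups, the 2 most abundant members of classes without a call, 8 genes per direction outside the lists (mean log2 CPM of at least 1), and the 5 liver genes with most reads. Some genes that this rule selects are not reported here. Tested on simulated counts with 200 genes changed by a log2 FC of 1.5, edgeR recovered 185 with 9 false calls among 14028 genes, and DESeq2 182 with 13 among 14420. Alternatives were DESeq2 1.42.0, RLE size factors, no filter, the replicate number as a block, 1 surrogate variable, the library set as a term, all 16 libraries fitted together, offsets for GC content and length, no liver genes, libraries left out, the unadjusted p and, chosen after seeing the data, total reads as the scale. Summaries and figures used pandas 2.3.3 and matplotlib 3.10.9.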

Additional observations from a re-analysis of the deposited data

Results flagged for a closer look

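In groups of 4 libraries, a highest or lowest value whose gap to its nearest neighbour is large against the range of the group (Dixon's test at its 95% critical value) was found in 16 of 334 groups looked at, where chance alone gives about 1 in 20. All values are log2 CPM unless a unit is given. In Ctrl, 1 library had a low mean in 6 gene classes. It was at 7.101 for hnRNP proteins (others 8.066 to 8.183), 8.526 for the CCT chaperonin (9.177 to 9.28), 7.101 for heat shock chaperones (7.729 to 7.854), 5.433 for ribosome biogenesis factors (5.953 to 6.025), 5.888 for DNA replication genes (6.293 to 6.369) and 5.836 for endoplasmic reticulum stress genes (6.038 to 6.08), and in each of these the library was Ctrl 1. Single genes apart in Ctrl were CCT7 at 8.964 (others 9.888 to 10.07), TMEM132E at -0.6155 (0.465 to 0.605) and, on the high side, TMEM87A at 3.5 (3.097 to 3.154).

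Among the siRNAG5 libraries, reads with several alignments reached 42.44% in siRNAG5 1 against 26.33 to 29% in the others. Low values were 1.694 for TMEM67, a cilium gene (others 2.333 to 2.408), 2.158 for the arginine transporter SLC7A3 (2.873 to 3.007) and 7.567 for the one-carbon enzyme SHMT2 (8.03 to 8.106). High values were 5.392 for the tRNA methyltransferase TRMT11 (4.963 to 5.002), 5.734 for the mean of RNA polymerase I and III subunits (5.655 to 5.668) and 8.675 for the mean of other TOP mRNAs (8.491 to 8.506).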

How the results depend on the processing

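The call of GEMIN5 in Polysome was the same under every alternative run, with log2 FC from -1.56 to -1.08. Against 577 genes called lower in Polysome and 569 genes called higher in Polysome, DESeq2 called 1194 lower, no filter 941 lower, 1 surrogate variable 1398 and 1563, the library set as a term 1299 and 1476, the fit without Ctrl 1, siRNAG5 1 and siRNAG5 4 1788 and 1327, length and GC offsets 920 higher, all 16 libraries in one fit 1520 and 1077, total reads as the scale 207 and 2307, and the unadjusted p 1343 and 1599. Leaving out 1 library gave 113 to 836 lower and 76 to 687 higher, the lowest without Ctrl 2 and the highest without siRNAG5 4, and the cause was not tested. The replicate number as a block gave 558 and 444, and same-numbered libraries deviated together with correlations of 0.504, -0.261, 0.400 and -0.559, so the numbers were not taken as pairs. Of the 577 and 569 genes, 536 and 557 were also called with the library set as a term, 479 and 503 with length and GC offsets, and 199 and 569 with total reads. Of 121 named genes with a value, 89 lost their call without Ctrl 2 and 25 with total reads. With total reads the median of all genes moved by 0.347, and 17 of 43 class medians changed sign, all of them below 0 before. Depth limits the genes at low CPM, such as H2AC4 and CD74 in siRNAG5, which rest on few reads per library.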
